A study of Rattus norvegicus with 48 samples.

Results

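Bmal1 (ENSRNOG00000014448, also called Arntl), Clock (ENSRNOG00000002175) and Npas2 (ENSRNOG00000013408) were followed across rat left ventricles. They are 3 of the 32883 genes in the deposited count table, chosen by identifier as the activators of the circadian clock, and all 3 passed the filter on low counts in every comparison. Hearts came from female and male Sprague Dawley rats aged 8 weeks when injections began. Rats received methamphetamine at 5 mg/kg subcutaneously, or saline, once a day for 10 days. Hearts were taken either on day 11, which was 24 h after the last injection, or after 30 days without drug (abstinence). That gave 8 groups of 6 rats; 47 of the 48 libraries had a column in the table, and replicate 3 of the saline females at day 11 was not analysed here. The strain is outbred, no allele was modified, and each library was poly(A) RNA from 1 rat.

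The circadian clock is a loop of transcription and repression that runs in nearly every cell, heart muscle cells included. BMAL1 pairs with CLOCK, or with its close relative NPAS2, and the pair binds E-box sequences and switches on the Per and Cry genes, whose proteins then shut the pair down. In a side loop the REV-ERB receptors (Nr1d1, Nr1d2) repress Bmal1, Clock and Npas2 through ROR elements, while ROR receptors activate them, so that Bmal1 and Npas2 messages cycle out of phase with Per, Dbp and Nr1d1. Hearts in this study were collected at a single time of day, in the morning of the light phase, so a level here is 1 point of a daily cycle, and a changed level and a shifted cycle cannot be told apart.

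The start site windows of the 3 genes are shown because Bmal1 and Npas2 moved together below and because Bmal1 is known for paired ROR elements at its start. Each window runs from 250 bases before to 50 bases after the start annotated by RefSeq in GRCr8, on the plus strand: chr1:176766078-176766377 for Bmal1, chr9:48959315-48959614 for Npas2 and chr14:32262500-32262799 for Clock. Capitals mark the letters AGTAGGTNA, a repeat picked after the sequence was seen.
Bmal1: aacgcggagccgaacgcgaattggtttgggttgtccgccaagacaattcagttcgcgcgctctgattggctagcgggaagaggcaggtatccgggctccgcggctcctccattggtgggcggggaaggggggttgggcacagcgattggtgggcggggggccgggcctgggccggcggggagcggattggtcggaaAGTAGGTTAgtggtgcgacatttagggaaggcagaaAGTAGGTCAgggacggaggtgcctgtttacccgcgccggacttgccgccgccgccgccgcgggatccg
Npas2: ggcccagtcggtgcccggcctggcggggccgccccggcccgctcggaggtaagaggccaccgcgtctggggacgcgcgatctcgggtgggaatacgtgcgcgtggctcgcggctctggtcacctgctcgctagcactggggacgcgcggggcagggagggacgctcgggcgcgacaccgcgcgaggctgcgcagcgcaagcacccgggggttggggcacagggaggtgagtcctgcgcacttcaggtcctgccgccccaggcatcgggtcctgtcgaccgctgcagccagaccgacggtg
Clock: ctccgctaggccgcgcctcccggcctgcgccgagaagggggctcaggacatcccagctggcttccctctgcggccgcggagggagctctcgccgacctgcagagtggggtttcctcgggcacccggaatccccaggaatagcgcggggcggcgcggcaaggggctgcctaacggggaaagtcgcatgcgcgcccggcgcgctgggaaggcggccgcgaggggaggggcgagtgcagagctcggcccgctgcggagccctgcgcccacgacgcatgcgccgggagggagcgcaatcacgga

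The Bmal1 window held AGTAGGTTA at position -54 and AGTAGGTCA at position -18 from the start. The later copy contains AGGTCA, the half-site bound by REV-ERB and ROR receptors. Of 33469 RefSeq start site windows of this length, 0.604% held AGTAGGTNA and 16.2% held AGGTCA on either strand. No match to AGTAGGTNA, AGGTCA, the E-boxes CACGTG (6.42% of windows) and CACGTT (4.83%) or the D-box TTANGTAA (2.24%) was found in the Npas2 window, the Clock window or a further annotated Clock start at chr14:32300295-32300594. The Bmal1 window had no match to these E-boxes or to the D-box either. A match in these letters describes the sequence and not a bound site.

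The libraries held 6661581 to 11314050 counted reads (median 9020989). The 8 libraries numbered replicate 5, 1 in each group, carried the genes of the other sex. Over 2 genes that mark female libraries and 5 that mark male libraries by their counts, the replicate 5 libraries labelled female had 85.8 to 115% of the usual male-gene level and 4.03 to 12.9% of the usual female-gene level. Those labelled male had 76.9 to 108% of the female-gene level and 7.61 to 12.2% of the male-gene level. The other 39 libraries carried the genes of their labelled sex. Among them, males had 0.391 to 4.85% of the female-gene level and females 0 to 2.51% of the male-gene level. Most replicate 5 libraries thus kept more of their labelled sex than that, and why was not tested. The differences between groups are therefore given with all libraries as labelled and again without replicate 5, a result from one of these sets alone says which, and the part that these libraries play was measured only by leaving them out. Of the cell type markers, Myl4 (an atrial light chain) and Ptprc (the pan-leukocyte CD45) could be matched to identifiers. In CPM, the count scaled to a common library size, Myl4 reached 90.7 in 1 saline female at day 11 against a median of 3.07 over all libraries, and Ptprc reached 74.6 in 1 methamphetamine female after abstinence against 23.9.

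**Figure D1:**
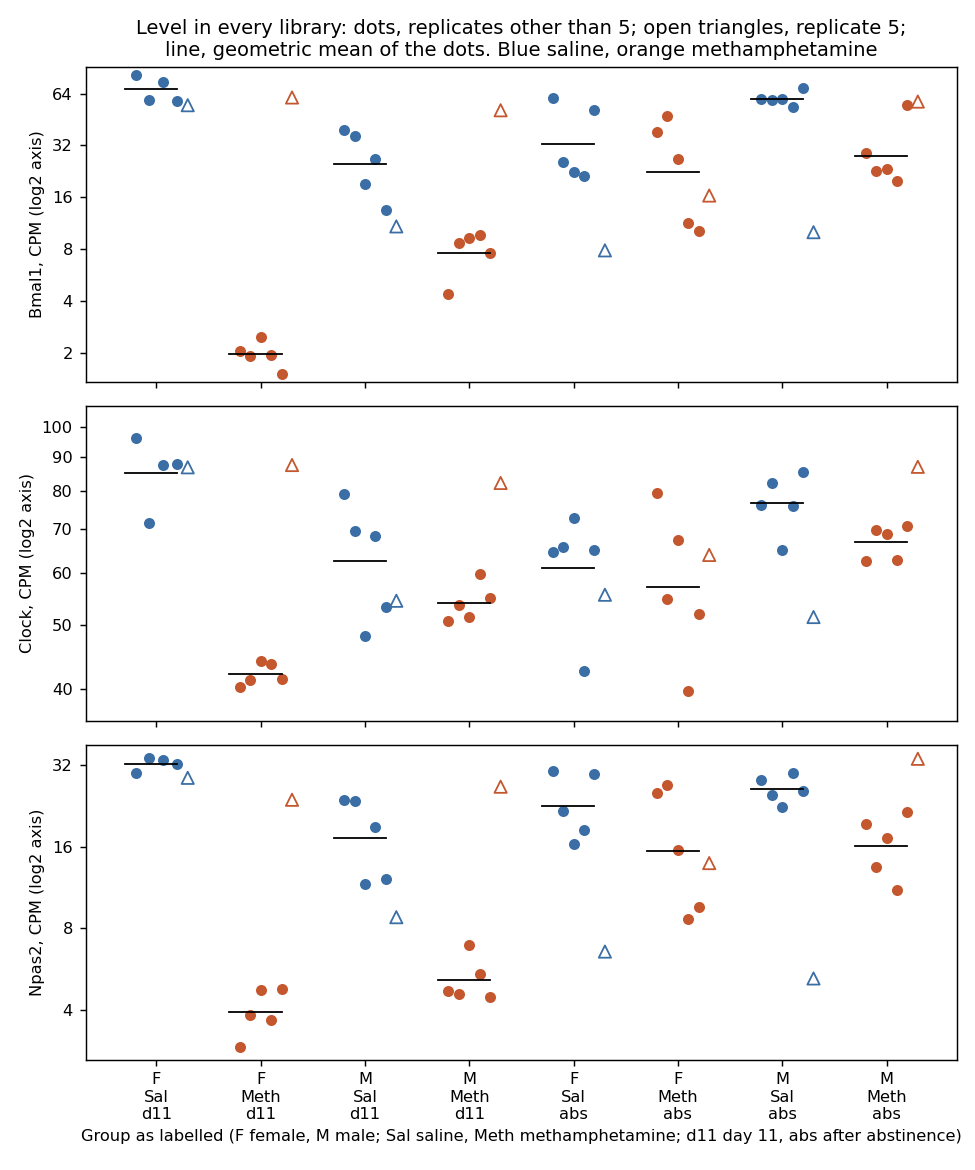
CPM of Bmal1, Clock and Npas2 (log2 axes) in each of the 47 libraries, by group as labelled. Dots are replicates other than 5, open triangles are replicate 5 and lines are geometric means of the dots; the methamphetamine females at day 11 lie lowest for Bmal1, at 1.5 to 2.47 CPM, with replicate 5 at 60.8.

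In saline females at day 11 all 3 activators were at their highest group mean. Bmal1 was at 82.1, 58.7, 74.6 and 58.4 CPM in replicates 1, 2, 4 and 6, and at 54.8 in replicate 5. Npas2 was at 29.9, 33.9, 33.2 and 32.3 CPM, and at 28.6 in replicate 5. Clock was at 96.3, 71.6, 87.5 and 87.8 CPM, and at 86.9 in replicate 5. Replicate 5 lay below the other 4 libraries for Bmal1 and Npas2 and among them for Clock. CPM is scaled for library size but not for gene length, so levels are compared between groups and not between genes.

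In saline males at day 11 the 3 genes were spread more widely. Bmal1 was at 39.5, 36.3, 19.0, 26.6 and 13.5 CPM in replicates 1, 2, 3, 4 and 6, and at 10.8 in replicate 5. Npas2 followed the same order apart from replicates 3 and 6, at 23.7, 23.6, 11.7, 18.9 and 12.2 CPM, with 8.79 in replicate 5. Clock ranged from 48.1 to 79.0 CPM, with 54.4 in replicate 5. For Bmal1 and Npas2, no male saline library at day 11 reached the lowest female one.

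After abstinence the saline females were spread and the saline males were close together. Bmal1 in saline females was at 60.4, 25.5, 22.5, 21.2 and 51.4 CPM, and at 7.85 in replicate 5. In saline males it was at 59.6, 58.5, 59.7, 53.8 and 69.1 CPM, and at 10.0 in replicate 5. Npas2 ranged from 16.4 to 30.2 CPM in saline females, with 6.57 in replicate 5, and from 22.4 to 29.9 CPM in saline males, with 5.23 in replicate 5. Clock ranged from 42.6 to 72.8 CPM in saline females and from 65.0 to 85.4 CPM in saline males, with 55.6 and 51.4 in their replicate 5 libraries. Replicate 5 was thus the lowest library of both groups for Bmal1 and Npas2.

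The spread within saline groups was set against that of the 14412 genes that passed the filter over all libraries. Without replicate 5, the SD of log2 CPM of Bmal1 was 0.25 in females at day 11 (n = 4), 0.64 in males at day 11 (n = 5), 0.71 in females after abstinence (n = 5) and 0.13 in males after abstinence (n = 5). In the 2 wider groups 96.6% and 97.7% of genes had a lower SD than Bmal1, and in males after abstinence 35.9% did. Npas2 had SDs of 0.08, 0.49, 0.39 and 0.16 in the same order, above 14.5%, 91.6%, 83.8% and 49.9% of genes. Clock had SDs of 0.18, 0.29, 0.30 and 0.15, never above more than 70.4% of genes. The median gene had an SD of 0.16 to 0.21.

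With replicate 5 included, Bmal1 had an SD of 1.04 in saline females and 1.05 in saline males after abstinence, above 99.6% and 99.8% of genes. For scale, the lowest count of Bmal1 in a saline library other than replicate 5 was 137 reads, for which counting alone gives an SD of 0.12 on the log2 scale. The wide groups were wider than that, and the difference in spread between groups was not tested.

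**Figure D2:**
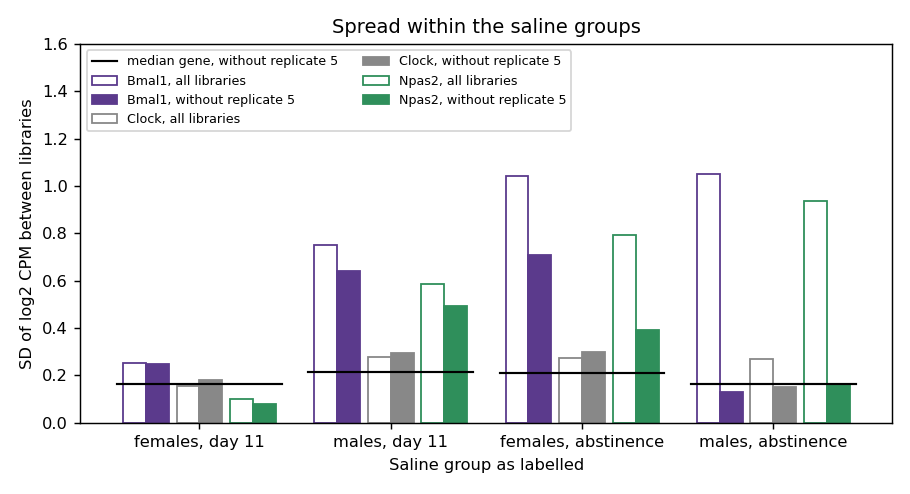
SD of log2 CPM between libraries (y axis) of each gene in the 4 saline groups (x axis), open bars with all libraries and filled bars without replicate 5; black lines are the median SD of all 14412 genes without replicate 5. In males after abstinence the Bmal1 bar falls from 1.05 to 0.13 when replicate 5 is left out.

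Saline hearts were compared between sexes and between time points in 1 edgeR quasi-likelihood fit of the 4 saline groups, with calls made where the p adjusted by the Benjamini-Hochberg method was under 0.1. Each time point was sequenced as its own pool, so time and pool cannot be told apart. All saline males at day 11, and none of the other saline rats but 1 female after abstinence, carried the lower series of rat numbers, so that series and group cannot be told apart there either.

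At day 11, Bmal1 was 2.70-fold higher in saline females than in saline males (log2 difference 1.43 ± 0.40, SE, adjusted p = 0.165) and was not called with all libraries. None of the 3 genes was called in that contrast, in which 0.213% of all genes were. Without replicate 5, Bmal1 (log2 difference 1.34 ± 0.28, adjusted p = 0.0158) and Npas2 (0.83 ± 0.19, adjusted p = 0.0257) were higher in females, 2 of 3 members against 3.2% of all genes. Clock differed by 0.42 ± 0.14 (adjusted p = 0.134).

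After abstinence none of the 3 genes was called between saline females and males, with all libraries (1.43% of genes called) or without replicate 5 (8.88%). Bmal1 was lower in females by log2 differences of -0.72 ± 0.38 with all libraries and -0.74 ± 0.27 without replicate 5 (adjusted p = 0.392 and 0.117).

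Between time points, the fitted difference (after abstinence minus day 11) was negative in saline females and positive in saline males for each of the 3 genes, but the groups overlapped with all libraries and few of these differences passed the test. In females Clock was called, at a log2 difference of -0.49 ± 0.13 with all libraries (adjusted p = 0.097, 1 of 3 members against 1.35% of genes) and -0.46 ± 0.14 without replicate 5 (adjusted p = 0.0948, against 3.56%). That call sat close to the threshold and was lost without the filter on low counts (adjusted p = 0.106), with all libraries in 1 fit (0.143) and on leaving out any 1 of 17 of the 23 libraries. Bmal1 differed by -1.07 ± 0.40 in females (adjusted p = 0.233), and by -0.92 ± 0.28 without replicate 5 (adjusted p = 0.101).

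In saline males Bmal1 was 2.13-fold higher after abstinence than at day 11 (log2 difference 1.09 ± 0.39, adjusted p = 0.406), and 0 of 3 members were called against 0.0852% of genes. Without replicate 5 Bmal1 was called (1.16 ± 0.27, adjusted p = 0.0455), 1 of 3 members against 2% of genes. Clock and Npas2 differed by 0.27 ± 0.13 and 0.53 ± 0.18 (adjusted p = 0.358 and 0.185).

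In female hearts at day 11 all 3 activators were lower with methamphetamine than with saline. Bmal1 was at 2.05, 1.92, 2.47, 1.93 and 1.5 CPM in replicates 1, 2, 3, 4 and 6 of the methamphetamine females, and at 60.8 in replicate 5. Replicate 5 lay inside the saline range of 54.8 to 82.1 CPM, and the other 5 libraries lay far below it. These 5 libraries held 17 to 25 reads of Bmal1 each, against 450 to 850 reads in saline.

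Npas2, the partner of BMAL1 that is close kin to CLOCK, was at 2.92, 3.84, 4.74, 3.67 and 4.77 CPM, and at 23.8 in replicate 5. All 6 libraries lay below the lowest saline female (28.6 CPM). Clock was at 40.3, 41.3, 44.2, 43.6 and 41.4 CPM, and at 87.6 in replicate 5, which lay inside the saline range of 71.6 to 96.3 CPM.

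With all libraries, the log2 fold change was -2.52 ± 0.72 for Bmal1 (95% interval -4.06 to -0.98, adjusted p = 0.0853), -2.14 ± 0.39 for Npas2 (adjusted p = 0.0112) and -0.80 ± 0.17 for Clock (adjusted p = 0.0235). All 3 members were called lower, against 2.38% of the 13890 genes tested. Without replicate 5 the values were -5.12 ± 0.15 for Bmal1 (adjusted p = 9.72e-12), -3.01 ± 0.11 for Npas2 (adjusted p = 1.75e-10) and -1.03 ± 0.08 for Clock (adjusted p = 7.75e-07), again 3 of 3 lower against 5.16% of 13986 genes. These are 34.7-fold, 8.05-fold and 2.04-fold lower levels. No tested gene had a lower fold change than Bmal1 in that fit, and 4 had a lower one than Npas2.

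In whole tissue, fewer cells of a type and less RNA per cell cannot be told apart. Myl4 moved in this comparison as well: it ranged from 5.85 to 90.7 CPM in the saline females and from 2.96 to 5.62 in the methamphetamine females without replicate 5, while Ptprc ranged from 18.7 to 21.6 and from 17.8 to 22.9 CPM. Their part in the result was not tested. The Bmal1 call with all libraries was lost on leaving out any 1 of 9 of the 11 libraries and held without methamphetamine replicate 5 (log2 fold change -5.06) or saline replicate 5.

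**Figure D3:**
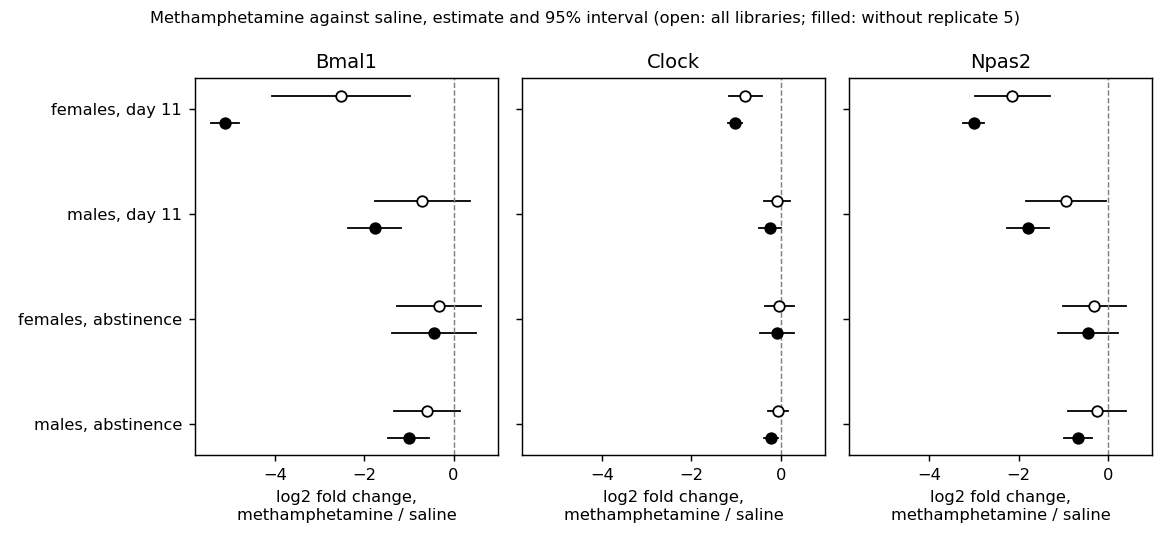
Log2 fold change of methamphetamine over saline (x axis) for the 3 genes in the 4 comparisons (y axis), with 95% intervals from edgeR; open points use all libraries and filled points leave out replicate 5. The Bmal1 estimate in females at day 11 moves from -2.52 to -5.12.

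In male hearts at day 11, Bmal1 and Npas2 were lower with methamphetamine in each library except replicate 5. Bmal1 was at 4.39, 8.65, 9.27, 9.60 and 7.56 CPM in replicates 1, 2, 3, 4 and 6 of the methamphetamine males, and at 51.2 in replicate 5. The first 5 lay below all saline males of that day (10.8 to 39.5 CPM), and replicate 5 lay above them all. Npas2 was at 4.72, 4.59, 6.92, 5.45 and 4.47 CPM, and at 26.6 in replicate 5, against 8.79 to 23.7 CPM in saline. Clock was at 50.7, 53.7, 51.3, 59.8 and 55.0 CPM, and at 82.2 in replicate 5, and overlapped the saline males (48.1 to 79.0 CPM).

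With all libraries no member was called, at log2 fold changes of -0.70 ± 0.50 for Bmal1 (adjusted p = 0.492), -0.93 ± 0.42 for Npas2 (adjusted p = 0.33) and -0.08 ± 0.14 for Clock (adjusted p = 0.773). Here edgeR called 0% of all genes (0 of 13753); 2020 had an unadjusted p under 0.05, and DESeq2 called 163. Leaving out saline male replicate 5 alone gave 1590 called genes, and methamphetamine male replicate 5 alone gave 9. Without replicate 5, Bmal1 (-1.76 ± 0.28, adjusted p = 0.013) and Npas2 (-1.79 ± 0.22, adjusted p = 0.00416) were lower, 3.40-fold and 3.46-fold. That is 2 of 3 members against 3.17% of genes called lower. Clock was not called (-0.24 ± 0.12, 95% interval -0.49 to 0.01, adjusted p = 0.243). Of 13887 genes, 5 had a lower fold change than Bmal1 and 4 a lower one than Npas2. All saline males at day 11 came from the lower series of rat numbers and all methamphetamine males from the higher, so treatment and series cannot be told apart in this comparison.

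The effect at day 11 was then compared between sexes by an interaction term over the 4 day 11 groups. With all libraries it was not called for any member: the female minus male difference in log2 fold change was -1.81 ± 0.99 for Bmal1, -1.20 ± 0.64 for Npas2 and -0.71 ± 0.24 for Clock (adjusted p = 0.733, 0.733 and 0.484; 0.119% of genes called). Without replicate 5 all 3 were called, with larger falls in females: -3.36 ± 0.39 for Bmal1 (adjusted p = 6.24e-05), -1.22 ± 0.27 for Npas2 (adjusted p = 0.044) and -0.79 ± 0.15 for Clock (adjusted p = 0.0131). In that direction 0.467% of 14343 genes were called. The rat number series differs between saline groups of the 2 sexes, which touches this term too. With methamphetamine female replicate 5 alone left out, the Bmal1 term was -4.36, and with methamphetamine male replicate 5 alone left out it was -0.90.

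After 30 days of abstinence, females given methamphetamine had values of the 3 genes that overlapped those of saline females. Bmal1 was at 38.5, 47.7, 26.6, 11.3 and 10.2 CPM, and at 16.4 in replicate 5, against 7.85 to 60.4 in saline. Npas2 ranged from 8.63 to 27.0 CPM and Clock from 39.7 to 79.4 CPM in the 6 libraries. The log2 fold changes were -0.33 ± 0.44 for Bmal1, -0.30 ± 0.33 for Npas2 and -0.03 ± 0.15 for Clock (adjusted p = 0.997 each), and -0.43 ± 0.43, -0.44 ± 0.31 and -0.09 ± 0.18 without replicate 5 (adjusted p = 0.994 each). The 95% interval for Bmal1 ran from -1.28 to 0.62. No gene in the table was called either way (0%), where 523 genes with all libraries and 541 without replicate 5 had an unadjusted p under 0.05, and DESeq2 called 26 and 20.

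Bmal1 and Npas2 in the methamphetamine females split by rat number series, and Clock did not. The 3 methamphetamine females of the lower series had Bmal1 at 26.6 to 47.7 CPM and the 3 of the higher series at 10.2 to 16.4. Npas2 was at 15.6 to 27.0 CPM in the lower series and at 8.63 to 13.9 in the higher, while Clock overlapped, at 54.8 to 79.4 and 39.7 to 63.9 CPM. In saline females the 1 rat of the lower series had Bmal1 at 60.4 CPM, and the 5 of the higher series alone spanned 7.85 to 51.4. With series as a block, the log2 fold changes were -0.92 for Bmal1 and -0.68 for Npas2 (adjusted p = 0.883 for both), and -1.18 and -0.93 without replicate 5 (adjusted p = 0.847 for both). Ptprc ranged from 20.7 to 74.6 CPM in the methamphetamine females and from 19.8 to 24.0 in the saline females, and its part was not tested.

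In males after abstinence Bmal1 was at 28.9, 22.7, 23.4, 19.8 and 54.9 CPM in methamphetamine replicates 1, 2, 3, 4 and 6, and at 57.6 in replicate 5. Replicates 1 to 4 lay below the saline males other than replicate 5 (53.8 to 69.1 CPM), and replicates 5 and 6 lay within their range. Npas2 was at 19.3, 13.4, 17.3, 11.1 and 21.5 CPM, all below the same saline males (22.4 to 29.9), with 33.6 in replicate 5. Clock ranged from 62.7 to 70.7 CPM, with 87.0 in replicate 5.

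None of the 3 was called in males after abstinence. The log2 fold changes were -0.59 ± 0.35, -0.24 ± 0.31 and -0.06 ± 0.11 for Bmal1, Npas2 and Clock with all libraries (adjusted p = 0.999 each), where 0% of genes were called (0 of 13606, with 652 at an unadjusted p under 0.05 and 23 called by DESeq2). Without replicate 5 they were -1.01 ± 0.21, -0.67 ± 0.15 and -0.21 ± 0.07 (adjusted p = 0.146, 0.189 and 0.586; 0.103% of genes called). There Bmal1 was 2.01-fold lower, with a 95% interval on the log2 scale of -1.46 to -0.55, and 16 of 13621 genes had a lower fold change. DESeq2 without replicate 5 called Bmal1 (adjusted p = 0.07) and Npas2 (adjusted p = 0.0146).

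Interaction terms compared the effect at day 11 with that after abstinence. In females the terms were not called with all libraries: -2.17 ± 0.96 for Bmal1, -1.82 ± 0.57 for Npas2 and -0.75 ± 0.25 for Clock (adjusted p = 0.496, 0.231 and 0.278; 0.233% of genes called). Without replicate 5 all 3 were called, at -4.68 ± 0.58, -2.57 ± 0.38 and -0.94 ± 0.21 (adjusted p = 0.000354, 0.00177 and 0.0401), against 0.797% of genes called in that direction. In males no member was called with all libraries (0.149% of genes called). Without replicate 5 only Npas2 was (-1.13 ± 0.28, adjusted p = 0.0982, 1 of 3 members against 0.618% of genes), while Bmal1 differed by -0.76 ± 0.38 (adjusted p = 0.382). Saline males at day 11 were the only male group of the lower rat number series, so series cannot be told apart from the male terms. In females all day 11 rats were of the higher series, while 3 methamphetamine rats and 1 saline rat after abstinence were of the lower. The part of series in the female terms was not tested.

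The order of the 8 group means was then read for each gene. Saline females at day 11 stood highest and methamphetamine females at day 11 lowest for all 3 genes, with methamphetamine males at day 11 next above, whether replicate 5 was kept or left out. Between neighbours in the order, 0 of 21 exact two-sided permutation tests of mean log2 CPM reached an adjusted p under 0.1 with all libraries. Without replicate 5, 5 of 21 did. Bmal1 fell from methamphetamine females after abstinence to methamphetamine males at day 11 by 1.53 and from there to methamphetamine females at day 11 by 1.85 on the log2 scale (exact p = 0.00794, adjusted p = 0.0417, for each step, with no overlap). Npas2 was lower by 1.54 at the first of these steps (exact p = 0.00794, adjusted p = 0.0417), and Clock was lower by 0.36 at the last (exact p = 0.00794, adjusted p = 0.0417). The fifth step was between the top 2 groups for Npas2, 0.31 higher in saline females at day 11 than in saline males after abstinence (exact p = 0.0159, adjusted p = 0.0667). The p of 0.00794 is the smallest that 5 libraries against 5 can give. No other step between neighbours passed. The pairs tested were set by the order of these same means. Neighbours can differ in sex, time point and sequencing pool at once, as methamphetamine females after abstinence and methamphetamine males at day 11 do. Groups farther apart in the order were not tested in this way and can still differ, as saline males did between time points for Bmal1 without replicate 5.

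Ratios within a library showed that the 3 genes did not fall by equal factors. In females at day 11 the log2 ratio of Npas2 to Clock was -1.44 ± 0.23 (SD, n = 5) in saline and -3.10 ± 0.65 (SD, n = 6) in methamphetamine libraries, without overlap (exact permutation p = 0.00433, adjusted p = 0.0519 over 12 tests). Bmal1 to Clock fell by 3.26 and Bmal1 to Npas2 by 1.59 on the log2 scale with all libraries (exact permutation p = 0.00866 and 0.013, adjusted p = 0.0519 for both). Without replicate 5 the 3 differences were -1.96, -3.95 and -2.0 (exact permutation p = 0.00794, adjusted p = 0.019 each).

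In males at day 11 no difference was found in the ratio of Bmal1 to Npas2, which does not show that the ratio was equal. Without replicate 5 the log2 ratio was 0.53 ± 0.24 (SD, n = 5) in saline and 0.54 ± 0.40 (SD, n = 5) with methamphetamine (difference 0.01, exact permutation p = 0.96). With all libraries the difference was 0.12 (exact permutation p = 0.548). Without replicate 5 both genes fell against Clock, by 1.47 for Bmal1 and 1.48 for Npas2 on the log2 scale (exact permutation p = 0.00794, adjusted p = 0.019 for both). Treatment and rat number series cannot be told apart for these ratios either. With all libraries the Npas2 to Clock ratio was lower by 1.07 (exact permutation p = 0.0173, adjusted p = 0.0519) and the Bmal1 to Clock ratio differed by -0.96 (exact permutation p = 0.0649, adjusted p = 0.13). In males after abstinence, the Bmal1 to Clock ratio was lower by 0.90 and the Npas2 to Clock ratio by 0.49 without replicate 5 (exact permutation p = 0.0238 and 0.0476, adjusted p = 0.0476 and 0.0816), and neither passed with all libraries (adjusted p = 0.449 and 0.885). In females after abstinence no ratio passed.

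Pooled over groups, Bmal1 and Npas2 rose and fell together from library to library. No r was computed for a single group, and not every group showed this pattern. Without replicate 5, the lowest Bmal1 in saline males after abstinence (53.8 CPM) went with the highest Npas2 (29.9). In saline females at day 11 the highest Bmal1 (82.1 CPM) went with the lowest Npas2 (29.9). In saline males at day 11 both genes were highest in the same library (39.5 and 23.7 CPM). After subtracting group means, log2 CPM of Bmal1 and Npas2 had Pearson r = 0.94 and Spearman rho = 0.93 over 47 libraries (permutation p = 1.0e-05 for both, the smallest that 100000 draws within groups can give; adjusted p = 0.00012 over 24 relations). Without the 2 libraries farthest from the median of Bmal1, r was 0.92 (n = 45). Bmal1 and Clock had r = 0.80 and rho = 0.74 (permutation p = 4.0e-05 and 1.0e-05, adjusted p = 0.00016 and 0.00012), and r = 0.67 without the 2 farthest. Clock and Npas2 had r = 0.76 and rho = 0.70 (permutation p = 2.0e-05 and 3.0e-05, adjusted p = 0.00012 and 0.000144), and r = 0.69 without the 2 farthest.

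The replicate 5 libraries carried part of this. Without them, over 39 libraries, Bmal1 and Npas2 had r = 0.83 and rho = 0.76 (permutation p = 3.0e-05 and 2.0e-05, adjusted p = 0.000144 for both). Bmal1 and Clock had r = 0.58 and rho = 0.56 (permutation p = 0.00783 and 0.00263, adjusted p = 0.0134 and 0.00526), and Clock and Npas2 r = 0.54 and rho = 0.44 (permutation p = 0.0161 and 0.0241, adjusted p = 0.0242 and 0.0362). Without the 2 farthest libraries these r values were 0.79, 0.64 and 0.45 (n = 37).

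Within the 19 saline libraries other than replicate 5, r was 0.85 for Bmal1 and Npas2 (rho = 0.75, permutation p = 0.00319 and 0.00823, adjusted p = 0.00696 and 0.0141). Within the 20 methamphetamine libraries it was 0.83 (rho = 0.72, permutation p = 0.00188 and 0.0044, adjusted p = 0.00451 and 0.00812). The relation was seen at each time point, and so in each sequencing pool: r was 0.63 at day 11 (n = 19, rho = 0.59, adjusted permutation p = 0.0594 and 0.0543) and 0.92 after abstinence (n = 20, rho = 0.90, adjusted permutation p = 0.000274 and 0.000377). Group means but not rat number series were subtracted. Both genes split by series in methamphetamine females after abstinence, and the part of series in these r values was not tested. With replicate 5 kept, r was 0.96 over the 23 saline and 0.94 over the 24 methamphetamine libraries (adjusted permutation p = 0.00012 for both).

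The relations with Clock were weaker in these subsets. Without replicate 5, Clock with Npas2 did not reach an adjusted p of 0.1 by r in saline (r = 0.53, adjusted permutation p = 0.11), with methamphetamine (r = 0.59, adjusted permutation p = 0.138) or after abstinence (r = 0.51, adjusted permutation p = 0.1185). Bmal1 with Clock did not reach it by r with methamphetamine (r = 0.60, adjusted permutation p = 0.1185; rho = 0.60, adjusted permutation p = 0.0438) or by either measure after abstinence (r = 0.51, rho = 0.40, adjusted permutation p = 0.1185 and 0.172). At day 11 both pairs reached it, with r = 0.74 for Bmal1 and Clock and r = 0.62 for Clock and Npas2 (adjusted permutation p = 0.0108 and 0.0726).

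**Figure D4:**
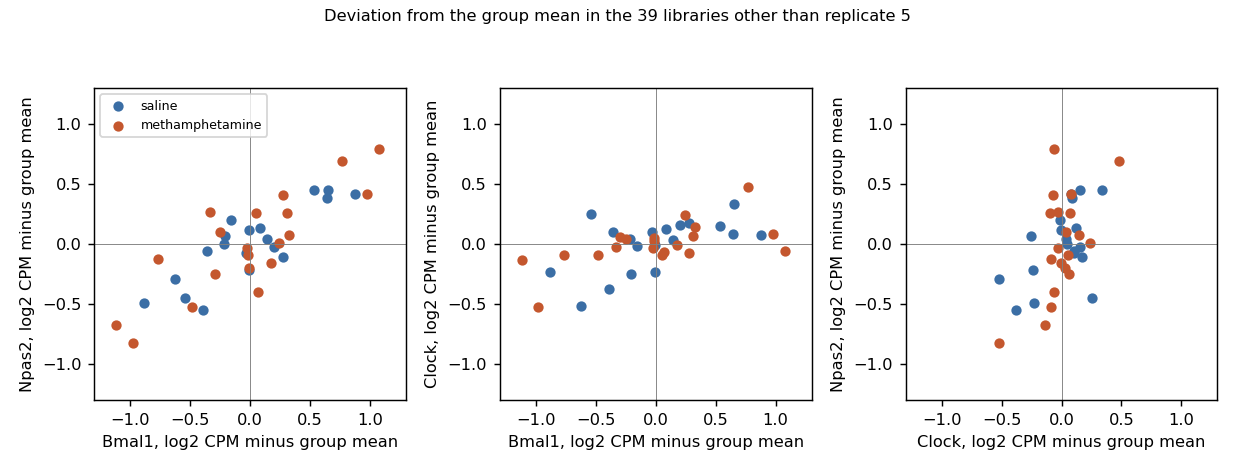
Deviation of log2 CPM from the group mean for each pair of genes in the 39 libraries other than replicate 5 (blue saline, orange methamphetamine); both axes of every panel have the same range. Bmal1 and Npas2 lie along a line (r = 0.83), and Clock varies over a narrower range.

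As a description, all 14411 other genes that passed the filter were ranked by the Pearson r of their group-centred log2 CPM with each member over the same 39 libraries, which share pools and group centring. Closest to Bmal1 were Slc41a3 (a magnesium transporter, r = 0.89), Npas2 (0.83), Sphk2 (a sphingosine kinase, 0.79), Ckap4 (0.75) and Eepd1 (0.73). Most opposed to it were the clock repressors Per3 (r = -0.88) and Per2 (-0.87) and the D-box factors Dbp (-0.86) and Tef (-0.86), with 1 gene of no symbol here. Closest to Npas2 were Bmal1 and Slc41a3 (0.78), with Col5a3 (a collagen chain, 0.74) in the top 5, and most opposed, with the second and the fourth place taken by genes of no symbol here, were Per2 (-0.84), Tef in the third place (-0.82) and Dgat2 in the fifth (an enzyme of triglyceride synthesis, -0.74). Clock had other closest neighbours: Gja1, the gap junction protein connexin 43, came first (r = 0.87), and Ephx1 (epoxide hydrolase) was among the 5 most opposed (-0.74). The other genes among the 5 closest and the 5 most opposed to Clock had no symbol here. In the list of Clock, Bmal1 ranked at position 957 from the top and Npas2 at 1260. Clock itself ranked at position 52 in the list of Bmal1 (r = 0.58) and at 64 in that of Npas2 (r = 0.54).

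Of 33 other clock genes and clock targets listed, 11 could be matched to identifiers, through the study's own tables of changed genes, so their changes are no independent evidence. In females at day 11, 9 of the 11 rose, 1 fell and 1 was not called, with all libraries (1.8% of all genes rose and 2.38% fell) and without replicate 5 (4.28% and 5.16%). Without replicate 5 the repressors Per2 and Per3 rose by log2 fold changes of 2.75 ± 0.07 and 3.45 ± 0.18 (adjusted p = 5.87e-12 and 1.31e-08). The D-box activators Dbp and Tef rose by 3.66 ± 0.16 and 2.16 ± 0.07 (adjusted p = 1.02e-09 and 7.99e-11). The REV-ERB genes Nr1d1 and Nr1d2, whose proteins repress Bmal1, rose by 1.29 ± 0.17 and 1.87 ± 0.14 (adjusted p = 0.000177 and 1.09e-06). Nfil3, the D-box repressor, fell (-0.73 ± 0.11, adjusted p = 0.000698) as the activators did, and Cry1 was not called (-0.02 ± 0.10, adjusted p = 0.948).

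In males at day 11 none of the 11 was called with all libraries, and 6 rose and 0 fell without replicate 5 (3.37% of all genes rose and 3.17% fell), with Per2 at 1.14 ± 0.20 (adjusted p = 0.0216) and Tef at 0.91 ± 0.10 (adjusted p = 0.00408). Nr1d1 was at -0.45 ± 0.31 (adjusted p = 0.394) and Nr1d2 at 0.33 ± 0.11 (adjusted p = 0.116). In females after abstinence none was called. In males after abstinence none was called with all libraries, and without replicate 5, 4 rose and 2 fell, against 0.0587% and 0.044% of all genes. Nr1d1 rose by 1.86 ± 0.23 (adjusted p = 0.00521) and Dbp by 2.38 ± 0.36 (adjusted p = 0.0293), and Nfil3 and Cry1 fell (-1.01 ± 0.11 and -1.02 ± 0.17, adjusted p = 0.00222 and 0.0485). Without replicate 5, the median of absolute log2 fold changes over the 11 genes was 1.29 in females and 0.47 in males at day 11, and 0.34 in females and 1.01 in males after abstinence. Over all genes tested it was 0.11, 0.15, 0.10 and 0.07 in the same order. With all libraries the medians were 1.08, 0.32, 0.21 and 0.28 for the 11 genes and 0.09, 0.12, 0.09 and 0.07 for all genes. The 11 genes were matched through the study's tables of changed genes. Their counts and medians against all genes are therefore no independent evidence either.

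**Figure D5:**
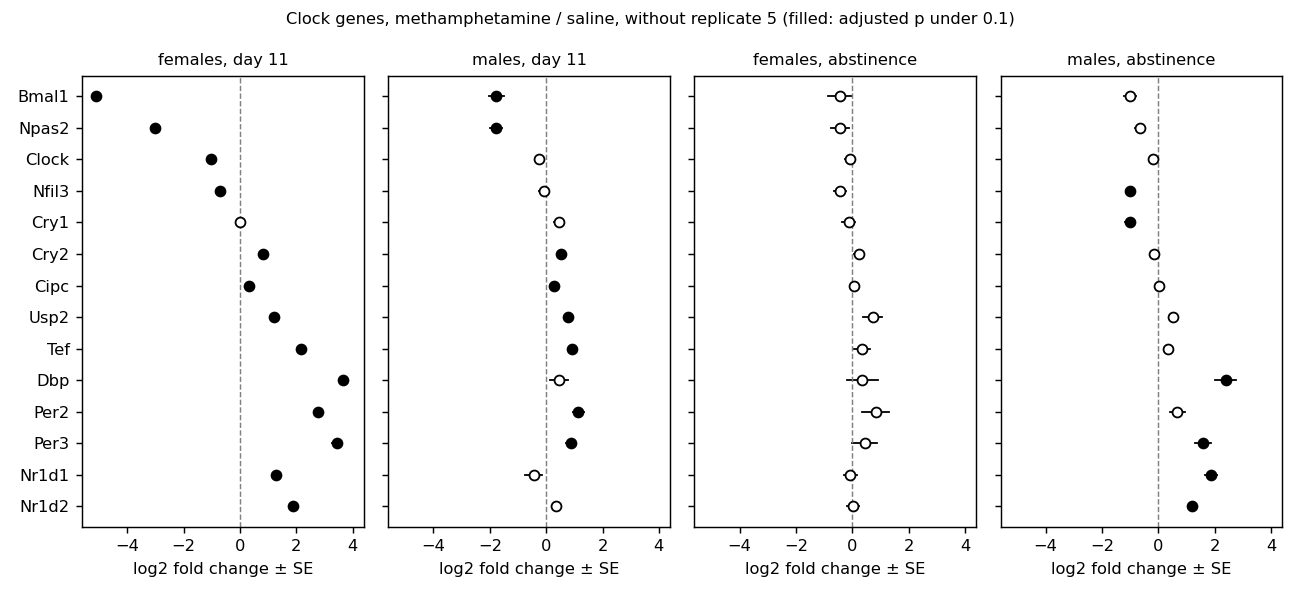
Log2 fold change of methamphetamine over saline with its SE (x axis) for the 3 activators and the 11 matched clock genes (y axis) in the 4 comparisons without replicate 5; filled points had an adjusted p under 0.1. In females at day 11 Bmal1 (-5.12) and Dbp (3.66) mark the ends of the range.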

How the data were processed

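Left ventricular RNA of 48 rats was sequenced by the study, and 47 libraries were analysed. Per the labels' processing notes, the authors used Trimmomatic 0.38, HISAT2 2.1.0, the Rnor_6.0 genome and DESeq2 1.20.0. The deposited raw counts are whole reads per Ensembl gene and were tested as deposited. The deposited normalized values (signal) equal the raw counts over a size factor for each library, and served as an alternative. Comparisons were fitted over all genes with edgeR 4.0.16 (TMM factors, filterByExpr, quasi-likelihood test, Benjamini-Hochberg adjusted p under 0.1) in R 4.3.3, on the groups compared; SE was derived from the F statistic. DESeq2 1.42.0 was an alternative, as were RLE factors, no filter, all libraries in 1 fit, a replicate block, the rat number series as a block and leaving out libraries. The edgeR step was tested on simulated data. CPM used TMM factors, and log2 CPM a prior count of 2. Permutation tests were two-sided, on log2 CPM, in Python.

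The members and lists were chosen with earlier results of these data known. Named genes were the members, all listed clock genes with an identifier, and the 5 genes with the highest and the 5 with the lowest correlation with each member. Symbols came from 328 identifiers that the study's tables pair with names; 11 of 33 listed clock genes, and only Myl4 and Ptprc among the cell type markers, were matched. Each library is a separate rat. Columns of the authors' comparisons in those tables were not used. Counting was not stated to use strand.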

Additional observations from a re-analysis of the deposited data

Results flagged for a closer look

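In 9 group sets of values 1 library stood apart from the other libraries of its group by Dixon's test at the 95% level, which chance alone passes in about 1 of 20 groups; 24 sets of values were tested at both ends. All 9 were replicate 5. In methamphetamine females at day 11, replicate 5 was the highest library for Bmal1 (60.8 CPM), Clock (87.6 CPM) and Npas2 (23.8 CPM). In methamphetamine males at day 11, replicate 5 was again the highest for Bmal1 (51.2 CPM), Clock (82.2 CPM) and Npas2 (26.6 CPM). In saline males after abstinence, replicate 5 was the lowest for Bmal1 (10.0 CPM) and Npas2 (5.23 CPM), and in methamphetamine males after abstinence it was the highest for Clock (87.0 CPM). The same libraries carried the genes of the sex opposite to their label, and the part of that mismatch in these values was not tested.

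Once the 8 replicate 5 libraries were removed, the effect of methamphetamine differed between groups by an interaction term in edgeR at an adjusted p under 0.1. At day 11 the female minus male difference in log2 fold change was -3.36 for Bmal1, -0.79 for Clock and -1.22 for Npas2. In females the day 11 minus abstinence difference was -4.68 for Bmal1, -0.94 for Clock and -2.57 for Npas2. In males it was -1.13 for Npas2. Saline males at day 11 were the only male group of the lower rat number series, which touches the male term and the sex terms. Series touches the female day 11 minus abstinence terms too. After abstinence 3 methamphetamine females and 1 saline female were of the lower series, while all females at day 11 were of the higher. None of these terms passed with all libraries.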

How the results depend on the processing

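Leaving replicate 5 out of every group carried these results past the threshold: in males at day 11, Bmal1 (log2 fold change -1.76) and Npas2 (-1.79); the female minus male terms at day 11 of Bmal1 (-3.36), Clock (-0.79) and Npas2 (-1.22); the day 11 minus abstinence terms of Bmal1 (-4.68), Clock (-0.94) and Npas2 (-2.57) in females and of Npas2 (-1.13) in males; saline females minus males at day 11 for Bmal1 (1.34) and Npas2 (0.83); saline males over time for Bmal1 (1.16); and the log2 ratios Bmal1/Clock in males at day 11 (-1.47) and Npas2/Clock (-0.49) and Bmal1/Clock (-0.90) in males after abstinence. DESeq2 without replicate 5, chosen after seeing the data, called the same differences (-1.77 and -1.79; -3.35, -0.79 and -1.23; -4.69, -0.94, -2.58 and -1.12; 1.34 and 0.84; 1.16) and also Bmal1 (-1.01) and Npas2 (-0.67) in males after abstinence. DESeq2 with all libraries gave no p for Bmal1 and Npas2 in females at day 11. The cause of these moves was not tested beyond leaving libraries out.

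Replicate numbers gave no clear sign of pairing, in a description without a test. Deviations of same-numbered libraries correlated above 0.1 in only 2 of the 5 or 6 pairs of each comparison. The pair of replicate 5 was 1 of these each time. Its r was 0.31 in females and 0.25 in males at day 11, and 0.26 in females and 0.19 in males after abstinence. It was the highest pair except in males after abstinence, where the highest r was 0.20. The same number gave the best match for 2 of 5 in females and 1 of 6 in males at day 11. After abstinence it did so for 1 of 6 in females and 3 of 6 in males. With the replicate block Bmal1 was called between saline sexes at day 11 (1.56) and over time in saline females (-1.26), and Clock over time in saline females was not (-0.49), as it was not without the filter (-0.49) or with all libraries in 1 fit (-0.49). The block gave 3, 7, 1, 21, 88, 121 and 32 called genes in males at day 11, males after abstinence, the sex term, the female time term, saline sexes after abstinence, and saline females and males over time, against 0, 0, 17, 33, 201, 190 and 12.

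Without replicate 5 the genes called went from 581, 0, 0 and 0 in the 4 comparisons with saline (females and males at day 11, females and males after abstinence) to 1319, 908, 0 and 14, from 17, 33 and 21 in the sex, female time and male time terms to 114, 175 and 87, and from 30, 201, 190 and 12 in the saline contrasts (sexes at day 11 and after abstinence, females and males over time) to 452, 1255, 503 and 282. DESeq2 called 163, 26 and 23 genes in males at day 11 and females and males after abstinence, 45, 189 and 100 in the terms and 124, 435, 382 and 95 in the saline contrasts, and without replicate 5 it called 1268, 1500, 20 and 68, then 188, 332 and 266, then 574, 1367, 660 and 478. All libraries in 1 fit gave 46 and 130 genes in males at day 11 and females after abstinence, 10, 210 and 7 in the terms, and 61 and 398 between saline sexes. No filter gave 2 genes in males after abstinence, and 125 and 23 between saline sexes after abstinence and in saline males over time.

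Leaving out 1 library at a time gave these ranges where a call or sign changed. Females at day 11: Bmal1 -5.06 to -2.28, Bmal1/Npas2 -1.97 to -1.39. Males at day 11: Npas2 -1.67 to -0.80, Npas2/Clock -1.36 to -0.97, Bmal1/Clock -1.31 to -0.75. Females after abstinence: Clock -0.13 to 0.059, Bmal1/Npas2 -0.073 to 0.095. Males after abstinence: Npas2/Clock -0.38 to 0.014, Bmal1/Clock -0.79 to -0.35, Bmal1/Npas2 -0.48 to -0.30. Sex term: Bmal1 -4.36 to -0.90, Clock -0.95 to -0.59, Npas2 -2.04 to -0.47. Time term in females: Bmal1 -4.72 to -1.90, Clock -0.99 to -0.65, Npas2 -2.67 to -1.64; in males: Bmal1 -1.02 to 0.10, Clock -0.14 to 0.057. Saline: Bmal1 between sexes at day 11 1.28 to 1.62, Npas2 between sexes after abstinence -0.35 to 0.029, Clock over time in females -0.55 to -0.41. Genes called ranged from 332 to 980, 0 to 1590, 0 to 0 and 0 to 5 in the 4 comparisons with saline, from 0 to 102, 2 to 228 and 0 to 201 in the sex, female time and male time terms, and from 0 to 290, 8 to 588, 0 to 348 and 3 to 136 in the saline contrasts, in the orders above, so the shares of all genes called also rest on single libraries. Over all groups together, the 3 correlations kept their sign and side with another prior count, the deposited normalized values, replicate 5 left out or any 1 library left out, with r from 0.54 to 0.95; within 1 treatment or time point some of those with Clock did not pass.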
